A study of Bos taurus with 12 samples.

Results

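The miRNAs described here are bta-miR-139, bta-miR-204 and bta-miR-211, which make up 3 of the 783 rows of the deposited bovine table. They were picked by name because their levels changed between cycles in a different way in high and low responders. The paired changes, the differences between response groups within a cycle and the difference of the changes are therefore given as a description, with no test. The libraries were made from extracellular vesicles (EVs), membrane-bound particles released by cells, in plasma of 6 crossbred beef heifers (Charolais and Limousin crosses). High responders (H, n = 3) and low responders (L, n = 3) were selected from the upper and lower quartiles of a larger herd. The quartiles were those of the number of corpora lutea after superstimulation. Every heifer was synchronized and bled on Day 7 of an unstimulated cycle (U) and on Day 7 of the superstimulated cycle (S) that followed, which gave 3 libraries in each of UL, UH, SL and SH. Before the S sample, all heifers had received decreasing doses of follicle-stimulating hormone and prostaglandin and had been inseminated, so hormone treatment, insemination and the order of the cycles cannot be told apart. An H or L heifer is named by its number, and its U and S libraries were taken to be those with that number.

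A miRNA guides a silencing complex to messenger RNAs through base pairing, and bases 2 to 8 of the mature strand, the seed, set most of its targets. miRNAs with the same seed form a family whose predicted targets largely overlap. In the RefSeq annotation of the cattle assembly ARS-UCD2.0, each of the 3 genes lies within the span of 1 protein-coding gene, MIR139 within PDE2A, which encodes a phosphodiesterase, MIR204 within TRPM3 and MIR211 within TRPM1, which encode related cation channels. miR-204 is known for its role in retinal pigment epithelium, and miR-211 for its expression in melanocytes. Both are known to be made from the introns of these hosts in other mammals. The mature sequences of the table are shown with the seed in capitals, since they define which of the members belong together:
bta-miR-139: tCTACAGTgcacgtgtctccagt
bta-miR-204: tTCCCTTTgtcatcctatgcct
bta-miR-211: tTCCCTTTgtcatcctttgcc

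Seed TCCCTTT was found in miR-204 and miR-211 and in 0 further miRNAs of the table, and seed CTACAGT in miR-139 alone. Counted from 1 at the 5′ end, miR-204 and miR-211 differed at 1 position of their 21 shared bases, A17T (miR-204 has the first base), and miR-204 was longer by 1 base. Only perfect matches had been annotated, and a read that ended before position 17 would match both. The split of reads between the pair is thus less certain than their sum. The nearest row to miR-139 differed from it by 8 bases at the best alignment without gaps, so its reads are not shared with a near-identical copy.

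The libraries held 21466 (SH2) to 77433 (SH3) reads of known miRNAs, with a median of 41190, and 336 miRNAs had a read in at least 1 of the 12. Levels are given as normalized reads, that is reads divided by a size factor (TMM) that brings each library to the mean depth. A read is worth more in a shallow library, and 3 reads stood for 6.08 normalized reads in SH2 but 1.82 in SH3. For a miRNA with 0 reads, this value of 3 reads is used as the upper limit. All limits and 95% intervals cover counting error only, and those of pooled reads leave out the differences between heifers. In a bulk plasma sample, fewer vesicles of a source and less of a miRNA per vesicle cannot be told apart.

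miR-139 was the only member with reads well above the floor in every library, 7 to 93 per library and 318 in total (0.0595% of all miRNA reads). By mean level it ranked 75 among the 336 miRNAs with a read. In UL, the levels were 20.5, 28.2 and 22.9 normalized reads for heifers 1, 2 and 3. In UH, the same heifer numbers gave 23.7, 66.8 and 18.2. The first and the last of these lay within the range of the unstimulated low responders or just below it, whereas UH2, with 93 reads, was the highest of all 12 libraries. In SL, 28.5, 35.8 and 32.7 normalized reads were found. In SH, the values were 9.48, 14.2 and 9.12, from 7, 7 and 15 reads. All 3 SH libraries lay below every library of the 3 other groups.

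The mean level of miR-139 (± SD, n = 3 per group) was highest in UH at 36.2 ± 26.6, followed by SL at 32.3 ± 3.66, UL at 23.9 ± 3.98 and SH at 10.9 ± 2.83. The UH mean rested on UH2 and was 20.96 without it. Group ranges overlapped for UH vs. UL. They did not overlap for SH vs. UH, SH vs. SL and SL vs. UL, which held for 6.72%, 7.56% and 7.14% of all 238 miRNAs examined (7.14% for UH vs. UL), and nothing is read from these counts because miR-139 was picked on them. In the SL vs. UL comparison the gap was small. SL1 and UL2 were closest, with 28.5 and 28.2 normalized reads and 95% Poisson intervals of 18.1 to 42.8 and 19.2 to 40.1. The deposited values, in tags per 1000000 mapped reads (TPM), gave 95, 467 and 116 in UH and 48, 55 and 69 in SH. They were 104, 138 and 115 in UL and 144, 176 and 144 in SL, so the same 3 pairs of groups stayed apart without TMM scaling.

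**Figure D1:**
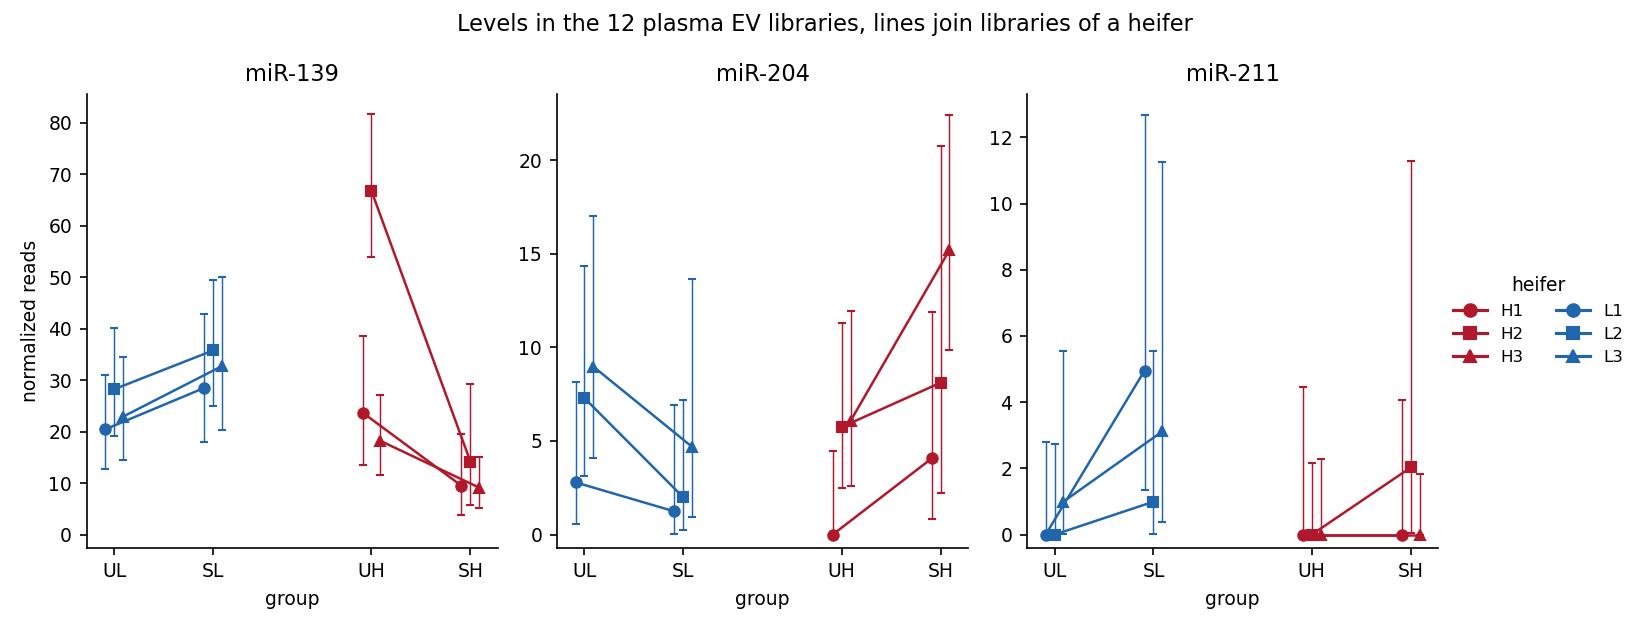
Normalized reads of miR-139, miR-204 and miR-211 in the 12 libraries, by group on the x axis, with lines joining the U and S library of a heifer (red, H; blue, L). Bars are exact 95% Poisson intervals, ending at 3 reads for a library with 0. Each H heifer has less miR-139 in SH than in UH, with at most 14.2 normalized reads in SH, miR-204 is highest in SH3 at 15.2, and miR-211 does not exceed 4.96.

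Within heifers, miR-139 was lower in the S than in the U library of all 3 high responders. On the log2(normalized reads + 1) scale, the change from U to S was -1.24 in H1, -2.16 in H2 and -0.92 in H3, with a mean of -1.44 ± 0.37 (SE). The ratios S over U were 0.400 (95% interval 0.139 to 1.03), 0.213 (0.0832 to 0.456) and 0.501 (0.244 to 0.994) in the same order, so the interval of H1 included 1. Over the 3 heifers, 133 reads in UH stood against 29 in SH, a pooled ratio of 0.257. Of the 133 reads, 93 came from UH2. No interval is given for pooled ratios, since the members were picked on these changes. Without H2, whose U library was the highest, the mean change was -1.08.

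In low responders, miR-139 was slightly higher in each S library. The log2 changes were 0.46 in L1, 0.33 in L2 and 0.50 in L3, and their mean was 0.43 ± 0.05 (SE). This was a narrow spread for heifers whose single ratios, 1.39, 1.27 and 1.43, all had intervals that included 1. For L1 the interval ran from 0.742 to 2.62. The SE of 0.05 is smaller than counting error alone would give, so it does not measure how well the L change is known. Pooled, 76 reads in UL and 80 in SL gave a ratio of 1.36. The mean changes of H and L heifers differed by -1.87 ± 0.37 (SE, H minus L), most of it from the high responders.

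miR-204 was a low-abundance member, with 74 reads in total, 0 to 25 per library, and rank 134 by mean level. In UL, it had 3, 8 and 9 reads, or 2.79, 7.29 and 8.97 normalized reads. In UH, the reads were 0, 8 and 8, or 0, 5.74 and 6.07 normalized reads, and the limit for UH1 was 4.44. Unstimulated high and low responders thus overlapped. In SL, no library exceeded 3 reads (1, 2 and 3), which corresponded to 1.24, 1.99 and 4.68 normalized reads. In SH, 3, 4 and 25 reads gave 4.07, 8.11 and 15.2. Of the 32 reads of SH, 25 came from SH3, which was also the deepest library.

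Ordered by mean, miR-204 had 9.12 ± 5.64 normalized reads in SH, 6.35 ± 3.20 in UL, 3.94 ± 3.41 in UH and 2.64 ± 1.81 in SL (SD, n = 3). Neighbours in this order overlapped, and so did SH and SL, through SL3 and SH1. The mean of SL was 1.61 without SL3. In TPM, the 3 SH values were 20, 31 and 116, and the 3 SL values were 6, 9 and 20, with SL3 and SH1 equal.

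The changes of miR-204 ran opposite to those of miR-139. In high responders, its log2 changes from U to S were 2.34 in H1, 0.43 in H2 and 1.196 in H3, with a mean of 1.32 ± 0.55 (SE). For H1, the change was from 0 to 3 reads, so its size depended on the pseudocount. H3, with 8 and 25 reads, was the only heifer whose interval did not include 1 (ratio 2.504, 1.09 to 6.42). In low responders, the changes were -0.76, -1.47 and -0.81, with a mean of -1.01 ± 0.23 (SE), and each of the 3 intervals included 1. Pooled over H heifers, 16 reads before and 32 after superstimulation gave a ratio of 2.35. Over L heifers, 20 and 6 reads gave 0.388. The difference of the mean changes was 2.34 ± 0.60 (SE, H minus L).

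miR-211 was close to the limit of detection, with 9 reads in total in 5 of the 12 libraries. SL held 7 of them, with 4, 1 and 2 reads in SL1, SL2 and SL3, or 4.96, 0.994 and 3.12 normalized reads. UL3 and SH2 had 1 read each (0.997 and 2.03 normalized reads), and the 7 other libraries had 0, which allowed up to 1.82 (SH3) to 4.44 (UH1) normalized reads. Only SL1 exceeded 3 reads. The group means were 3.02 ± 1.98 in SL, 0.676 ± 1.17 in SH, 0.332 ± 0.576 in UL and 0 in UH (SD, n = 3), and the ranges of the groups overlapped in each comparison. In L heifers, the pooled reads were 1 in U and 7 in S, a ratio of 9.06. No interval is given for this pooled ratio, since miR-211 was picked on these changes. The interval of each single heifer included 1. In H heifers, 0 and 1 read were found, and no ratio is given. The log2 changes were 2.57, 0.996 and 1.04 in L1, L2 and L3, and 0, 1.60 and 0 in H1, H2 and H3.

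**Figure D2:**
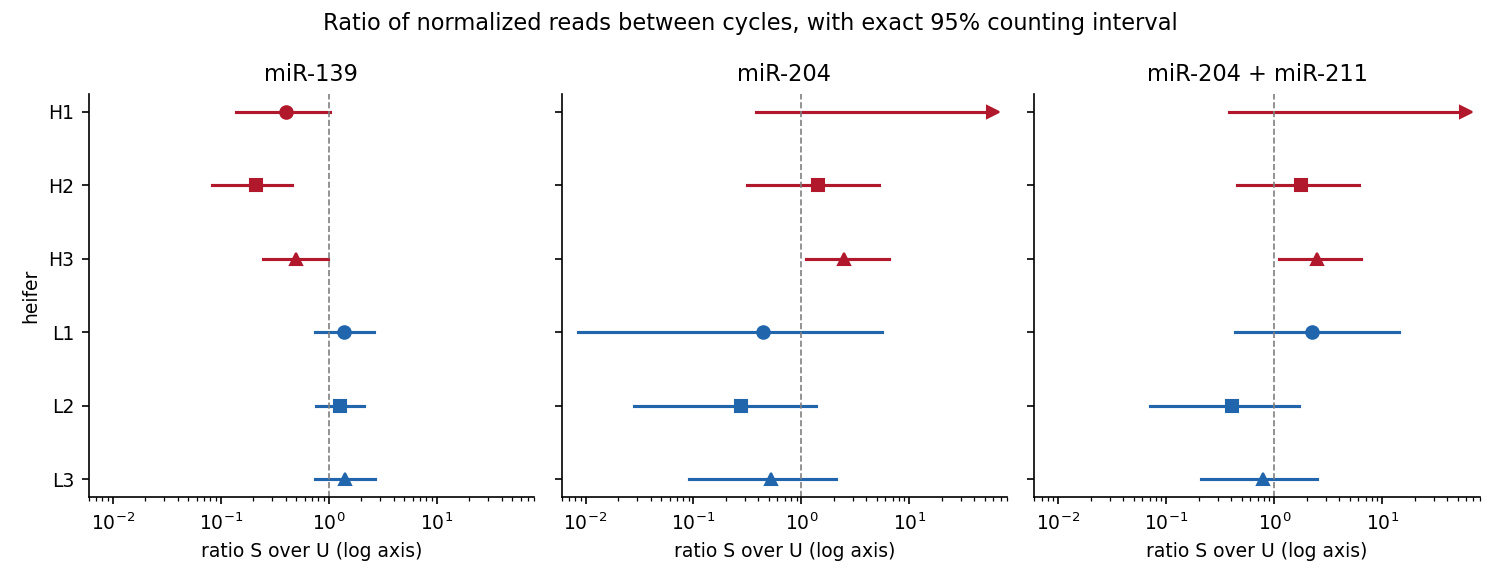
Ratio of normalized reads, S over U, for each heifer (log axis; red, H; blue, L), with exact conditional binomial 95% intervals. An arrow marks an interval with no upper bound, where U had 0 reads. For miR-139, H2 and H3 lie below 1 with their intervals, for miR-204, H3 lies above 1, and for the sum of miR-204 and miR-211, the 3 L heifers lie on both sides of 1.

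The reads of the family were split differently in SL than in the 3 other groups. In SL, miR-204 accounted for 6 of the 13 reads of miR-204 and miR-211 (46.2%, exact 95% interval 19.2 to 74.9%). In UL, UH and SH together, it accounted for 68 of 70 (97.1%, 90.1 to 99.7%). This is a description, since miR-204 and miR-211 were both picked on these changes and the reads of a group come from 3 heifers.

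When both miRNAs were added, low responders no longer changed in 1 direction. The sum was 3, 8 and 10 reads for L1, L2 and L3 in U and 5, 3 and 5 in S, or 2.79, 7.29 and 9.97 against 6.196, 2.98 and 7.80 normalized reads. The log2 changes of the sum were 0.92 in L1, -1.06 in L2 and -0.32 in L3, with a mean of -0.15 ± 0.58 (SE). In high responders, the sum was higher in S in each heifer, as for miR-204 alone, with a mean log2 change of 1.42 ± 0.48 (SE) and 16 reads in UH against 33 in SH. For L heifers, the direction of the mean depended on the heifers included and was 0.30 without L2.

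**Figure D3:**
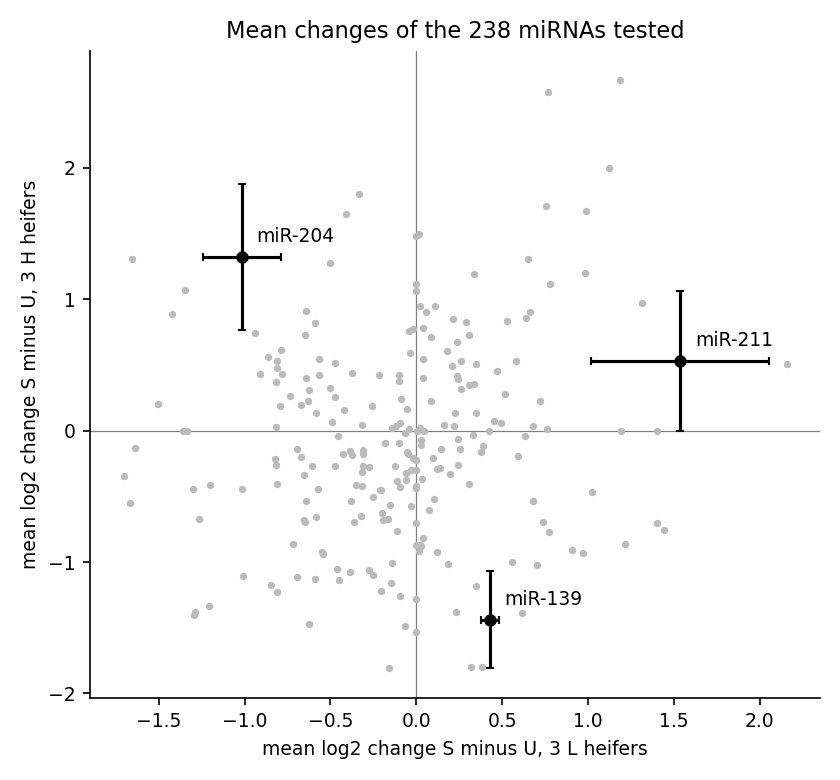
Mean log2 change from U to S of the 3 L heifers (x axis) and the 3 H heifers (y axis) for the 238 miRNAs tested (grey points) and the members (black, with SE over 3 heifers as bars). miR-139 (0.43 and -1.44) and miR-204 (-1.01 and 1.32) lie in opposite quadrants, and miR-211 (1.54 and 0.53) lies in the quadrant in which both means are positive.

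A total of 238 miRNAs were tested, those for which some group had a read in 2 or more of its 3 libraries. The changes of H and L heifers did not overlap for 12.2% of them, and all H heifers moved one way and all L heifers the other for 3.78%. miR-139 and miR-204 belonged to both sets, which is what they had been picked for. miR-211 belonged to neither. The median over all miRNAs tested of the mean change was -0.12 in H heifers and -0.06 in L heifers. miR-211 had entered this set only through SL, the group in which it was highest.

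The mean change over all 6 heifers, S minus U, does not use the difference of changes and could be tested. With limma on log2(normalized reads + 1) over the 12 libraries, 11 of 238 miRNAs (4.62%) passed an absolute log2 difference of 1 and an unadjusted P of 0.05, 6 higher and 5 lower in S. This fit had no term for the heifer, so it left out the pairing of U and S libraries. With the heifer as a block, 10 passed. With median-of-ratios size factors, 8 were higher and 4 lower. The balance turned without SH3, with 3 higher and 13 lower. The unadjusted P reached 0.05 or less for 17 miRNAs. After Benjamini-Hochberg adjustment, the lowest P was 0.540, so that 0 miRNAs were under 0.05. The median difference over all miRNAs was -0.13. For miR-139, the mean difference was -0.51 ± 0.35 (SE, limma adjusted P = 0.716), higher in 3 and lower in 3 of 6 heifers. It rested in part on H2, and the mean over the other 5 heifers was -0.18. For miR-204, it was 0.15 ± 0.62 (SE, limma adjusted P = 0.946), again with 3 heifers in each direction.

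miR-211 was among the 11 that met the thresholds, with a log2 difference of 1.04 ± 0.42 (SE). It had been included only through its reads in SL, a group of the S cycle, so this value is a description and no P is given for it. It rested on 1 read in the 6 U libraries and 8 in the 6 S libraries, a pooled ratio of 9.85, for which no interval is given. The thresholds were no longer met without UL1, UL2, SL1, SL3 or SH2, with the TPM as deposited and with a pseudocount of 2. An exact two-sided sign-flip permutation test over the 6 paired changes gave p = 0.344 for miR-139 and 0.781 for miR-204. The sum of miR-204 and miR-211 holds the same SL reads of miR-211. Its mean change of 0.63 ± 0.49 (SE), higher in 4 of 6 heifers, is therefore a description as well. With 6 paired changes, the smallest p of such a test is 0.0313. It was out of reach for miR-139 and miR-204, each higher in 3 heifers and lower in 3. Both had been picked for changes that differed between H and L heifers. These 2 tests could therefore not reach 0.05, and nothing is read from them. For miR-211, H1 and H3 did not change, and the 4 other heifers, all higher in S, allow no exact p below 0.125, so it could not be tested at 0.05.

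The difference between response groups averaged over both cycles, H minus L of heifer means, likewise does not use the difference of changes. Of 238 miRNAs, 6 (2.52%) were called by limma, 4 higher and 2 lower in H, and 9 reached an unadjusted P of 0.05 or less. Their lowest adjusted P was 0.244, so 0 stayed under 0.05. Without L2, 2 were higher and 10 lower. The members were not among the 6. The log2 difference was -0.57 (standard error 0.40) for miR-139 and 0.26 (0.70) for miR-204, with adjusted P of 0.734 and 0.975 from limma. For miR-139, it was -0.93 without H2 and -0.33 without H3. For miR-211, which had been included only through SL, an L group, the difference of -0.84 (0.45) is a description. Exact two-sided permutation tests of 3 against 3 heifer means gave p = 0.3 for miR-139 and 0.7 for miR-204. With 3 against 3, p cannot be below 0.1, so this test could not reach 0.05. The sum of miR-204 and miR-211 holds the SL reads of miR-211, so its difference (-0.17) is also a description. Its sign turned with the TPM as deposited (0.06). The median over all miRNAs was -0.03 here and 0.10 with that scaling.

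The miRNAs most like miR-139 over the 12 libraries were found among 107 others with a mean of at least 10 normalized reads. They were miR-126-5p (Pearson r = 0.83), miR-23b-3p (0.82), miR-126-3p (0.76), miR-30a-5p (0.76) and miR-1468 (0.73). The arms of miR-126 are known from endothelium. Spearman's rho was lower for each of them, between 0.45 and 0.68. The points share heifers and size factors, and the highest value of miR-139 and of the 5 miRNAs fell in UH2. The mean of miR-126-5p went from 882 ± 417 normalized reads in UH to 432 ± 315 in SH (SD, n = 3), and its log2 changes were -1.62, -0.77 and -1.09 in H1, H2 and H3. In L heifers, where miR-139 was higher in each S library, the changes of miR-126-5p were -0.05, 0.05 and -0.44. The part of these miRNAs in the result for miR-139 was not tested.

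For miR-204, the highest correlations among 108 miRNAs were those of miR-361 (Pearson r = 0.88, Spearman's rho 0.83), miR-25 (0.62, 0.77), miR-215 (0.61, 0.43), miR-423-5p (0.59, 0.71) and miR-23a (0.56, 0.38). miR-361 varied less between libraries. Its mean was 53.6 ± 18.6 normalized reads in SH against 44.3 ± 9.96 in SL (SD, n = 3), and its log2 changes were 0.36, 0.49 and 0.30 in the H heifers and -0.13, -0.22 and 0.05 in the L heifers. With 74 reads over 12 libraries, the profile of miR-204 carries large counting error. miR-139 and miR-204 had a Pearson r of -0.30 (Spearman's rho -0.44) over the 12 libraries, and miR-204 and miR-211 one of -0.13 (-0.08).

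**Figure D4:**
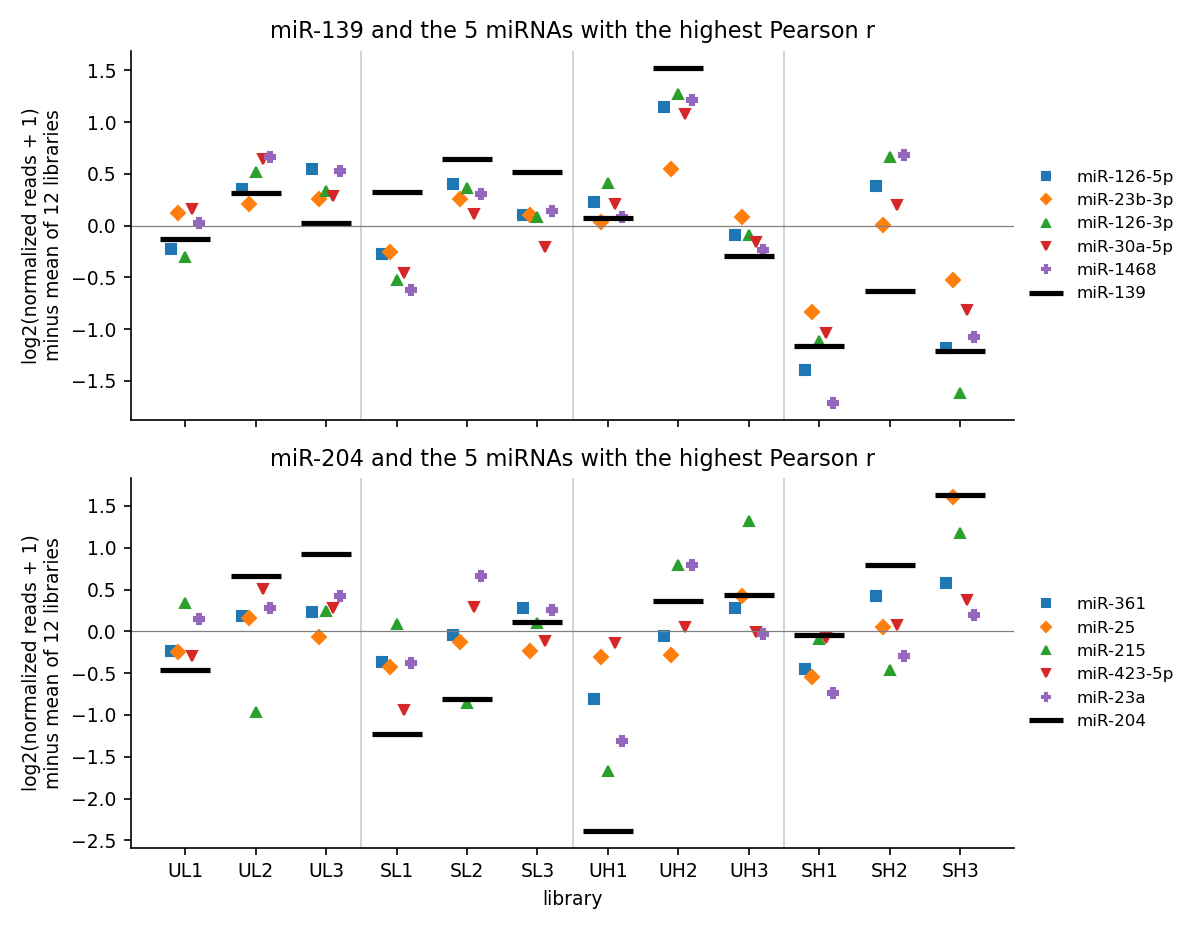
Deviation of log2(normalized reads + 1) from the mean over 12 libraries, by library on the x axis, for miR-139 (upper panel, black bars) and miR-204 (lower panel, black bars) and the 5 miRNAs most correlated with each (coloured symbols). In UH2 the 5 miRNAs and miR-139 have their highest values, and in UH1, where miR-204 had 0 reads, its bar is the lowest point.

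Lists of miRNAs known from single tissues were examined beside the members. The endothelial list (4 of 4 tested, highest member miR-126-3p) and the erythrocyte list (3 of 3, miR-486) had 0 members called in either comparison. The same was found for leukocytes and platelets (8 of 8, miR-150), liver (4 of 5, miR-122), ovarian follicle and corpus luteum (6 of 10, miR-21-5p) and epithelium (5 of 7, miR-205). Of 2 retina and pigment cell miRNAs tested, miR-182 was lower in S (log2 difference -1.11). Of 5 neural and endocrine miRNAs, miR-375 was lower in S (-1.02) and miR-218 higher in H (1.10). Close to the limit of detection were miR-182, with a mean of 0.802 normalized reads (0 in SL and SH), and miR-218, with 0.945 (0 in UL and SL). miR-182 passed the filter on reads only through UL, a group of the U cycle, and miR-218 only through H groups. The differences of miR-182 and miR-218 are therefore descriptions. Of 5 muscle miRNAs, miR-206 was lower in H (-2.29). These 4 calls, by unadjusted P in limma, stand beside a background of 4.62% and 2.52%. The medians of the S minus U difference lay between -0.51 (liver) and 0.17 (leukocytes and platelets), beside -0.13 over all miRNAs tested.

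Summed over each list, the groups overlapped in nearly all comparisons. The exception was the leukocyte and platelet list, with 3712 to 5160 normalized reads in SL and 2809 to 3158 in UL. For SL vs. UL, 7.14% of the miRNAs tested did not overlap. In H heifers, where miR-139 was lower in S, this list overlapped, with 2572 to 4442 in UH and 2802 to 4075 in SH. The endothelial list had 4764 to 12028 in UH and 1771 to 7808 in SH, 4166 to 7128 in UL and 3629 to 6533 in SL. This sum was mostly miR-126-3p, with a mean of 4983 normalized reads, beside 676 for miR-126-5p, 58.4 for miR-221 and 4.38 for miR-222. The list did not move as 1 in H heifers. The mean log2 changes from U to S were -1.22 for miR-126-3p and -1.16 for miR-126-5p, but 0.24 for miR-221 and 0.40 for miR-222. Erythrocyte miRNAs, which are used to check plasma for haemolysis, had 1131 to 2782 in UH and 1774 to 8438 in SH, where SH also held the deepest and the shallowest library. The retina and pigment cell list had 15.5 to 23.9 in UL, 3.79 to 17.8 in UH, 6.24 to 130 in SL and 0.608 to 23.035 in SH. Its highest member was miR-184, with a mean of 22.8 normalized reads. The part of these sources in the changes of the 3 members was not tested.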

How the data were processed

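Small RNA from plasma EVs was sequenced in 12 libraries of 4 groups taken from the sample titles. The authors trimmed adapters and collapsed reads by unique molecular identifier (Cutadapt). Bowtie2 2.2.2 aligned them to UMD3.1, and perfect matches were annotated against miRBase release 21. The authors used edgeR with TMM for their own tests. The deposited values are a score made by the authors, tags per 1000000 mapped reads of which the fraction was dropped, 1 column per library with 0 columns unused. Each was the whole part of a read count times a fixed step (4.48 to 7.93 TPM per read), and with these steps 0 values failed to give back whole reads. Depth was 21466 to 77433 miRNA reads per library.

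TMM factors were computed from those reads. Because the values are a normalized unit, log2(normalized reads + 1) was fitted with limma 3.58.1 (R 4.3.3) with its mean-variance trend on, after tests on simulated data. Tables, exact tests and figures were made in Python 3.11.15 (scipy 1.17.1, numpy 2.4.6, matplotlib 3.10.9, pandas 2.3.3). Ratios of single heifers have exact conditional binomial intervals and single libraries exact Poisson intervals, at 95%. The 3 members and all lists were chosen with earlier results of these data known. Named besides the members were miRNAs with the same seed, the 5 most correlated with miR-139 and with miR-204 (mean of at least 10 normalized reads), and of each tissue list its highest and any called member. The other members of the endothelial list were named as well. No pair of replicates was identical (0 of 12 pairs), and their counts differed by more than sampling noise.

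Libraries of U and S were paired by the number in the title, since each heifer was sampled in both cycles. The labels do not say that the same number is the same heifer. The direction of miR-204 in single heifers depends on this pairing, since SH overlapped UH and SL overlapped UL. The correlation of deviations from the group means over 238 miRNAs was 0.05, 0.21 and 0.13 for H1, H2 and H3 and 0.10, 0.06 and -0.05 for L1, L2 and L3. Alternatives were median-of-ratios and library size factors, the TPM as deposited, pseudocounts of 0.5 and 2, other filters on low reads, no trend, the heifer as a block, all 12 libraries taken as independent, and leaving out each library or heifer. Group means without each library were added after the data had been seen.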

Additional observations from a re-analysis of the deposited data

Results flagged for a closer look

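miR-139 changed in opposite directions in the response groups, with every H heifer lower and every L heifer higher in S than in U. The mean log2 changes differed by -1.87 (H minus L), and the difference was not tested because miR-139 was picked on it. For miR-204, every H heifer was higher and every L heifer lower in S, with a difference of 2.34 (H minus L), which was not tested for the same reason. Over all miRNAs tested, 3.78% met this description.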

How the results depend on the processing

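Of 188 alternative values, 171 were counted as unchanged. They kept their direction and side of the threshold or, where there was no test, moved by less than the spread between heifers. A large part of this count could not have come out otherwise. Leaving out 1 of 3 values cannot move a group mean or a mean paired change by more than its SD. The exact test of H minus L could not reach 0.05 in any setting. The mean paired changes of miR-139 and miR-204 kept their sign in all 8 alternatives of each response group, from -1.70 to -1.08 (H) and 0.37 to 0.48 (L) for miR-139 and from 0.81 to 1.77 (H) and -1.15 to -0.79 (L) for miR-204. For both, all 3 heifers of a group moved the same way, and they were picked on these changes. Leaving out a heifer or changing the pseudocount could therefore not turn the sign. Leaving out 1 heifer at a time, the S minus U difference of miR-139 ranged from -0.71 to -0.18 (without H2), and its H minus L difference from -0.93 (without H2) to -0.33 (without H3). The S minus U difference of the sum of miR-204 and miR-211 ranged from 0.29 (without H1) to 0.97 (without L2). The S minus U difference of miR-204 ranged from -0.28 (without H1) to 0.48, being -0.05 without H3. Its H minus L difference ranged from -0.19 (without H3) to 0.94, being -0.09 without L1. The H minus L difference of the sum of miR-204 and miR-211 ranged from -0.59 to 0.53 (without H1), was 0.11 without L3, and was 0.057 with the TPM as deposited. The miRNAs called for S minus U numbered 5 with the TPM as deposited, 4 with a pseudocount of 2 (4 higher, 0 lower) and 4 with a mean of at least 10 reads, and 5 to 16 without 1 library (5 without UL1, 7 without UL3, 6 without UH1, and 3 higher and 13 lower without SH3). Without SH2, 1 miRNA that is no member had an adjusted P under 0.05 from limma (0.0233). For H minus L, 2 were called with a pseudocount of 2, 1 with a mean of at least 10 reads, and 6 to 17 without 1 heifer (17 without H2, 12 without L2, of which 2 higher and 10 lower; 2 higher and 4 lower without H3 or without L1). With the heifer as a replicate block, 10 miRNAs were called for S minus U, and no member's call changed. The cause of these shifts was not tested. Depth limits the lower levels, as 3 reads stood for 1.82 to 6.08 normalized reads, and miR-204 exceeded 3 reads in 6 libraries and miR-211 in 1.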
